A study of Homo sapiens with 18 samples.

Results

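The spliceosome component genes examined here are 54 human genes whose proteins build or assist the splicing machinery, and the measurements are the introns of their own transcripts. A measured intron was assigned to a gene when at least 1 of its splice sites matched an annotated exon boundary of that gene in GENCODE release 44 on hg38. Of 781 such introns, 466 had a mean PSI between 1% and 99% over all libraries and were tested, out of 152722 introns tested in the whole dataset. They lay in 47 of the 54 genes and in 158 clusters. LUC7L2, SF3B4, SF3B5, U2AF1, CWC22, CWC25 and SART1 had no intron in this range. Of the remaining introns, 263 fell under the lower limit and 52 over the upper limit. The limits separated close values, with a PRPF39 intron at 1.002% just inside and a SRRM1 intron at 0.999% just outside, and at the upper limit a XAB2 intron at 98.996% inside and a ZRSR2 intron at 99.14% outside.

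The spliceosome removes introns through an ordered exchange of RNA-protein particles. U1 snRNP marks the 5′ splice site, U2 snRNP and its SF3A and SF3B subcomplexes hold the branch point next to the 3′ splice site, and the U4/U6.U5 tri-snRNP joins before the complex is activated and the Prp19 complex and late factors carry it through catalysis. Many splicing factor genes carry alternative exons that bring in an early stop codon, so that the transcript is a target of nonsense-mediated decay (NMD), and such exons are known as a means of setting the level of the factor.

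SHEP.tet21n, the only cell line used, is a neuroblastoma line in which MYCN is expressed from a transgene unless doxycycline (Dox) is added. MYCN- cells received 2 µg/mL Dox every 72 hours and MYCN+ cells received vehicle (DMSO), and each was transfected with a control siRNA (SNRPD3+) or with SNRPD3 siRNA #1 or #2 (SNRPD3-), in 6 groups of 3 replicate libraries and 18 libraries in all. SNRPD3 is a protein of the Sm ring shared by the spliceosomal snRNPs, MYCN-/SNRPD3+ is the wildtype, and the study asked how MYCN and SNRPD3 together shape alternative splicing. Libraries were made with a stranded mRNA kit, and the deposited percentage spliced in (PSI) is the share of a cluster's spliced reads that removed a given intron, where a cluster is a set of introns that share splice sites.

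PSI sets introns against others of their cluster and gives no level of expression, so neither the labelled cell type nor the depletion of SNRPD3 could be checked with it, and the SNRPD3 and MYCN genes themselves were left out. The reads behind a PSI are not given, the depth is unknown, and the error comes from the spread between replicates. The study describes its results as coming from independent biological replicates, and the labels name no separate cultures, so p-values measure the spread between these libraries. How often an exon was included and how fast the resulting RNA was degraded cannot be told apart. All MYCN- libraries received Dox and no MYCN+ library did, so effects of MYCN and of Dox itself cannot be told apart either. The library MYCN+/SNRPD3- siRNA #1 replicate 3 stood apart. Its mean exon skipping share over 11682 cassette exons was 46.2%, against 43.2% and 43.0% in the other replicates of its group, and over the 54 cassette exons of the spliceosome genes it was 75.5% against 70.0% and 68.3%. Replicate 3 of MYCN+/SNRPD3- siRNA #2 was also the highest of its group, at 44.64% against 42.96% and 42.15% over all cassette exons. Over those of the spliceosome genes it was 73.45% against 70.38% and 72.49%. For the member genes, counts without siRNA #1 replicate 3 of MYCN+/SNRPD3- are given beside the counts of calls, role lists, NMD introns and cassette exons. Role lists, NMD introns and cassette exons were not recounted without siRNA #2 replicate 3.

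Differences were tested with limma on log2((PSI + 0.01)/(1 - PSI + 0.01)), with p-values adjusted over all tested introns by the Benjamini-Hochberg method and a threshold of 0.05 for a call. Differences in PSI are in percentage points and the fitted differences are log2 odds with their standard error (SE). The 2 siRNAs were averaged unless named. An intron is given by the last base of the exon before it and the first base of the exon after it.

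MYCN+/SNRPD3- cells against wildtype gave the most changes in the spliceosome genes. In this comparison 13 introns in 8 genes (PRPF3, LUC7L, TIAL1, LUC7L3, PRPF39, SF3B1, SF3A3 and PPIH) were called, 7 with a higher and 6 with a lower PSI, which is 13 of 466 where the background over all tested introns was 0.559%. These calls lay in 8 clusters, and because the PSI values of a cluster sum to 1, introns of the same cluster are not separate results. At an unadjusted p under 0.05, 124 member introns (26.6%) differed, 54 higher and 70 lower, against 11% of all tested introns. The median absolute difference was 1.38 percentage points, below the 1.73 of all tested introns. The count depended on single libraries. Of the control libraries, leaving out wildtype replicate 1, 2 or 3 left 2, 5 or 0 calls, and leaving out MYCN+/SNRPD3+ replicate 1 or 2 left 6 each. Of the MYCN+/SNRPD3- libraries, 5 calls were left without siRNA #1 replicate 3, and 7 and 3 without siRNA #2 replicates 1 and 3. Of the MYCN-/SNRPD3- libraries, 7 were left without siRNA #1 replicate 1, and 6 and 7 without siRNA #2 replicates 1 and 3. Taken separately against wildtype, siRNA #1 gave 7 calls, 3 higher and 4 lower, and siRNA #2 gave 0. Over all 152722 tested introns siRNA #1 gave 261 calls higher and 164 lower, and siRNA #2 gave 97 and 71. At an unadjusted p under 0.05 they had 114 (24.5%) and 100 (21.5%) member introns, against 10.4% and 9.19% of all tested introns.

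The knockdown main effect took all SNRPD3- libraries against all SNRPD3+ libraries, weighting both MYCN states equally. In this comparison 1 intron was called, with a higher PSI and in TIAL1, where the background was 0.0242%, and 82 member introns (17.6%) had an unadjusted p under 0.05, 34 higher and 48 lower, against 7.8% of all tested introns. The count was 0 without siRNA #1 replicate 3 of MYCN+/SNRPD3- and also without any of 13 other libraries, and it was 2 without siRNA #1 replicate 1 of MYCN+/SNRPD3-. The MYCN main effect took all MYCN+ against all MYCN- libraries. Here 8 introns in 6 genes (PRPF38A, LUC7L, TIA1, PPIH, PRPF3 and LUC7L3) were called, 4 higher and 4 lower, where the background was 1.23%, and 104 member introns (22.3%) had an unadjusted p under 0.05 against 11.7% of all tested introns. There were 5 calls without siRNA #1 replicate 1 or 3 of MYCN+/SNRPD3-, 4 and 3 without MYCN+/SNRPD3+ replicates 2 and 3, and 5, 4 and 3 without wildtype replicates 1, 2 and 3. In MYCN-/SNRPD3-, 4 and 3 were left without siRNA #1 replicates 1 and 2, and 3 and 4 without siRNA #2 replicates 1 and 2. Over up to 28 alternative settings, single libraries left out included, other calls were lost as well. The PRPF39 call against wildtype was lost in 15, the SF3B1 calls in 18, the TIAL1 call for knockdown in 16, and the PPIH and PRPF3 calls for MYCN in 19 and 20, whereas the PRPF3 calls against wildtype were lost in 2 and the PRPF38A and LUC7L calls for MYCN in 0. The 3 comparisons share libraries, so they are set side by side here and are not independent of each other.

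No member intron was called by limma in the other 4 comparisons. For MYCN alone under control siRNA the background was 0.0543%, and 22 member introns (4.72%) had an unadjusted p under 0.05 against 6.19% of all tested introns. For SNRPD3 knockdown in MYCN- cells the background was 0.0138%, and 44 member introns (9.44%) passed against 4.69%. For SNRPD3 knockdown in MYCN+ cells the background was 0.0196%, and 67 member introns (14.4%) passed against 7.06%. For the interaction, the knockdown effect with MYCN minus that without, the background was 0.0177%, and 6 member introns (1.29%) passed against 3.98%. A difference between the knockdown effects in MYCN+ and MYCN- cells was therefore called for 0 of the 466 introns.

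**Figure D1:**
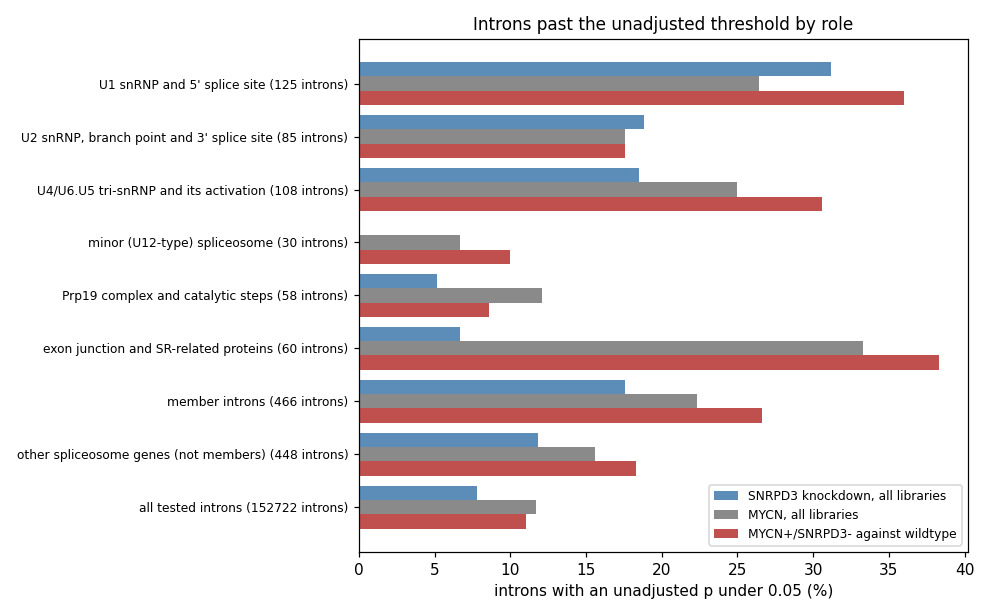
Bars give the percentage of tested introns with an unadjusted p under 0.05 (limma) in each role list, in all member introns, in other spliceosome genes and in all tested introns, for 3 comparisons. The U1 snRNP list reached 36% for MYCN+/SNRPD3- against wildtype and 31.2% for knockdown, where all tested introns had 11% and 7.8%.

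The proteins that act with U1 snRNP at the 5′ splice site held 7 of the 13 calls against wildtype and the only call of the knockdown main effect. Over all tested introns 0.559% and 0.0242% were called in these comparisons. The 7 calls lay in a single cluster each of LUC7L, TIAL1, LUC7L3 and PRPF39, so they are not 7 separate results. This list of U1 proteins had 8 genes, 7 with a tested intron, and 125 introns. At an unadjusted p under 0.05, 45 introns (36%) differed between MYCN+/SNRPD3- and wildtype, 17 higher and 28 lower, and 39 (31.2%) differed with knockdown, 11 higher and 28 lower. All tested introns had 11% and 7.8%. Without siRNA #1 replicate 3 of MYCN+/SNRPD3- the counts of this list were 35 (28%) and 37 (29.6%), where all tested introns had 10.4% and 7.41%. The calls of the list were then 3 against wildtype and 0 with knockdown. LUC7L3 had 13 of its 15 tested introns at an unadjusted p under 0.05 with knockdown, PRPF39 had 10 of 16 and TIAL1 had 8 of 13. SNRPA, the U1-A protein, had 0 of 4.

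TIAL1 is an RNA-binding protein that binds uridine-rich sequence beside weak 5′ splice sites and helps U1 snRNP to bind there. Its called cluster on chromosome 10 (minus strand) lies between exons 5 and 6 of the canonical transcript, where 2 alternative exons of 376 and 68 bases (chr10:119580471-119580846 and chr10:119580471-119580538) share a 5′ splice site. The 376-base exon belongs to an NMD transcript, with 34 coding bases before its stop. It is shown from 20 intron bases before the exon to this stop, in capitals, because it is one of the exons that the called introns skip or join (chr10:119580810-119580866).
TIAL1 NMD exon: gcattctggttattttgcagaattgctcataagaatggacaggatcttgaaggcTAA

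The intron chr10:119580010-119581922, which joins exon 5 directly to exon 6 and so skips both alternative exons, was the intron called for knockdown. Its PSI was 77.4, 82.1 and 78.2% in wildtype and 77.2, 79.6 and 77.8% in MYCN+/SNRPD3+. With siRNA #1 it was 84.5, 85.8 and 87.6% in MYCN- cells and 86.5, 88.3 and 89.6% in MYCN+ cells. With siRNA #2 it was 82.0, 82.0 and 84.8% in MYCN- cells and 85.0, 86.7 and 87.6% in MYCN+ cells. All SNRPD3- libraries in MYCN+ cells lay above both control groups, and in MYCN- cells 2 of the siRNA #2 libraries lay just below the highest wildtype library. The difference was 7.14 percentage points for knockdown (log2 odds 0.69, SE 0.0981, limma adjusted p 0.0405) and 8.04 against wildtype (log2 odds 0.80, SE 0.139, limma adjusted p 0.0265). With MYCN the difference was 1.54 points, with an adjusted p of 0.492.

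The intron downstream of the shared 5′ splice site of both alternative exons, chr10:119580010-119580471, moved the other way. Its mean PSI was 10.6% ± 1.5 (SD, n = 3) in wildtype and 9.72% ± 0.96 in MYCN+/SNRPD3+, 6.09% ± 0.42 and 8.44% ± 0.53 with siRNA #1 and #2 in MYCN- cells, and 4.77% ± 1.6 and 5.97% ± 0.76 in MYCN+ cells. The MYCN+/SNRPD3- libraries ranged from 3.75 to 6.82% and the wildtype libraries from 8.92 to 11.8%, without overlap. The difference against wildtype was -5.25 points (log2 odds -0.97, SE 0.163, limma adjusted p 0.0247), and with knockdown it was -3.85 points with an adjusted p of 0.0821.

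LUC7L3 is a human relative of the yeast U1 snRNP protein Luc7, which contacts the 5′ splice site helix. Between exons 2 and 3 of its canonical transcript, on the plus strand of chromosome 17, NMD transcripts include an exon of 193 bases (chr17:50737287-50737479) and, further on, one of 63 bases (chr17:50738137-50738199). Both carry an annotated stop codon, after 71 and 24 coding bases, and are shown as above from 20 intron bases to the stop (chr17:50737267-50737360 and chr17:50738117-50738163).
LUC7L3 193-base exon: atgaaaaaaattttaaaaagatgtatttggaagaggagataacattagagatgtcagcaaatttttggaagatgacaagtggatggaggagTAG
LUC7L3 63-base exon: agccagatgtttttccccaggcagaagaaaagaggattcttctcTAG

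Joining of exon 2 to exon 3 of LUC7L3 (chr17:50737026-50740306) had a PSI of 84.7, 85.5 and 81.7% in wildtype and 87.8, 85.6 and 86.1% in MYCN+/SNRPD3+. With siRNA #1 it was 91.4, 88.8 and 91.1% in MYCN- cells and 91.9, 90.8 and 95.3% in MYCN+ cells. With siRNA #2 it was 87.1, 87.1 and 88.1% in MYCN- cells and 91.3, 89.9 and 90.3% in MYCN+ cells. Every SNRPD3- library in MYCN+ cells lay above every control library, and the siRNA #2 libraries of MYCN- cells overlapped with MYCN+/SNRPD3+. Against wildtype the difference was 7.62 points (log2 odds 1.00, SE 0.181, limma adjusted p 0.0323), and with knockdown it was 5.04 points with an adjusted p of 0.152.

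A pair of introns of the LUC7L3 NMD exons fell against wildtype. The intron between the 2 exons (chr17:50737479-50738137) had a mean PSI of 2.34% ± 0.62 (SD, n = 3) in wildtype and 0.638% ± 0.21 and 1.01% ± 0.15 with siRNA #1 and #2 in MYCN+ cells, a difference of -1.51 points (adjusted p 0.0377). This intron was also called for the MYCN main effect, at -0.834 points (adjusted p 0.047). The intron after the 63-base exon (chr17:50738199-50740306) had 2.75% ± 0.74 in wildtype and 0.982% ± 0.42 and 1.25% ± 0.09 with siRNA #1 and #2 in MYCN+ cells, a difference of -1.63 points (adjusted p 0.0454). All of these levels are a few percent of the cluster at most. The call of the intron between the exons was lost in 15 alternative settings against wildtype and in 22 for MYCN (adjusted p 0.026 to 0.155 and 0.0323 to 0.112), and that of the intron after the 63-base exon in 23 (0.0313 to 0.199).

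PRPF39 is the human counterpart of a yeast U1 snRNP protein that helps U1 to be recruited. Between its exons 3 and 4, on the plus strand of chromosome 14, NMD exons of 69 bases (chr14:45096424-45096492) and 163 bases (chr14:45096596-45096758) are annotated, as is a single 335-base exon that spans both. Their stops follow 6 and 18 coding bases (chr14:45096404-45096432 and chr14:45096576-45096616, shown to the stop in capitals).
PRPF39 69-base exon: ttttctctctttgttggcaggtgcgtTAA
PRPF39 163-base exon: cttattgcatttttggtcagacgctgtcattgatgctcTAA

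The intron that joined exon 3 of PRPF39 to exon 4 (chr14:45096228-45096887) had a PSI of 39.5, 50.7 and 52.4% in wildtype and 60.0, 57.9 and 53.6% in MYCN+/SNRPD3+. With siRNA #1 it was 59.1, 52.0 and 61.8% in MYCN- cells and 69.1, 62.0 and 75.6% in MYCN+ cells. With siRNA #2 it was 61.6, 53.5 and 63.4% in MYCN- cells and 70.7, 67.2 and 81.8% in MYCN+ cells. The MYCN+/SNRPD3- libraries lay above every library of both control groups, the MYCN-/SNRPD3- libraries overlapped with MYCN+/SNRPD3+, and only siRNA #1 replicate 2 among them reached the wildtype range. The difference against wildtype was 23.5 points (log2 odds 1.44, SE 0.274, limma adjusted p 0.0396), and the knockdown and MYCN main effects were 12.5 and 11.6 points with adjusted p-values of 0.276 and 0.0855.

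A further PRPF39 cluster, between exons 8 and 9, holds an NMD exon of 100 bases (chr14:45109894-45109993). Joining of exon 8 to exon 9 (chr14:45109780-45110094) had a mean PSI of 40.5% ± 4.7 (SD, n = 3) in wildtype and 48.8% ± 7.0 in MYCN+/SNRPD3+. It was 49.6% ± 8.1 and 63.0% ± 9.5 with siRNA #1 and #2 in MYCN- cells, and 65.5% ± 13 and 69.5% ± 12 in MYCN+ cells. This was 27.0 points above wildtype without overlap of libraries, but the spread within groups was wide and the adjusted p was 0.103, so it was not called. The knockdown main effect was 17.3 points (adjusted p 0.327). The replicate 3 libraries of both MYCN+/SNRPD3- groups were the highest, at 78.7 and 82.9%.

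**Figure D2:**
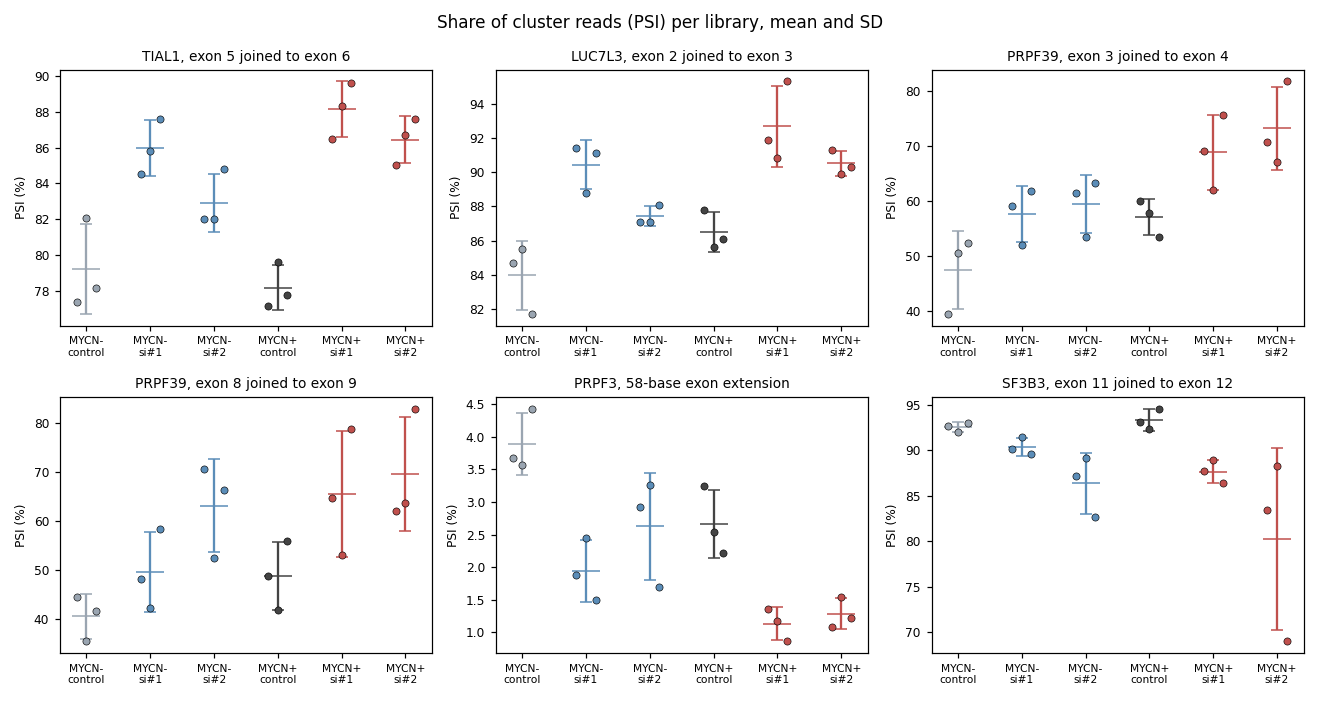
Points are the PSI (%) of single libraries, with the group mean and SD (n = 3), for 5 introns of TIAL1, LUC7L3, PRPF39 and SF3B3 that join adjacent exons and for the PRPF3 intron that uses the upstream 3′ splice site. The MYCN+/SNRPD3- groups lie above wildtype for the TIAL1, LUC7L3 and PRPF39 introns and below it for the PRPF3 and SF3B3 introns.

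LUC7L, another Luc7 relative, differed with MYCN as well as against wildtype. Its called intron (chr16:208664-220649, minus strand) joins exon 3 to an alternative 64-base exon (chr16:208601-208664) found between exons 3 and 4, and the 3′ splice site of this exon is shown with 20 intron bases in lower case and 3 exon bases in capitals (chr16:208662-208684).
LUC7L 64-base exon: tctattgttttgtttttgagGTG

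Its PSI was 2.33, 2.77 and 2.93% in wildtype and 1.61, 1.02 and 1.63% in MYCN+/SNRPD3+. In MYCN- cells it was 1.43, 2.05 and 1.62% with siRNA #1 and 2.07, 2.62 and 2.19% with siRNA #2. In MYCN+ cells it was 1.08, 0.74 and 0.635% with siRNA #1 and 1.66, 1.17 and 1.39% with siRNA #2. Wildtype lay above all MYCN+ libraries, while siRNA #1 in MYCN- cells overlapped with them. The MYCN main effect was -1.01 points (log2 odds -0.56, SE 0.091, limma adjusted p 0.00939), and the difference against wildtype was -1.56 points (adjusted p 0.0208). At the start of the gene, joining of exon 1 to exon 2 (chr16:227336-229279), which skips an alternative exon of 70 bases, was 52.2% ± 1.3 in wildtype, 68.2% ± 8.2 with siRNA #1 and 65.0% ± 5.5 with siRNA #2 in MYCN+ cells, with an adjusted p of 0.144 against wildtype.

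TIA1, the close relative of TIAL1 and likewise a U1 recruiting factor, had its call in the MYCN main effect. Exon 5 of TIA1 (chr2:70229059-70229091, minus strand) is a coding exon of 33 bases, so that its inclusion keeps the reading frame. It is shown in capitals with 10 intron bases on each side (chr2:70229049-70229101), because the called intron skips it.
TIA1 exon 5: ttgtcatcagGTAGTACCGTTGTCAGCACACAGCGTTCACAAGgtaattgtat

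The skipping intron (chr2:70227822-70229264), which joins exon 4 to exon 6, had a PSI of 9.66, 8.65 and 8.81% in wildtype and 12.4, 14.1 and 18.2% in MYCN+/SNRPD3+. In MYCN- cells it was 9.28, 6.41 and 13.5% with siRNA #1 and 8.58, 11.5 and 8.42% with siRNA #2. In MYCN+ cells it was 15.5, 15.8 and 29.1% with siRNA #1 and 17.7, 15.8 and 27.7% with siRNA #2. The MYCN+ libraries ranged from 12.4 to 29.1% and the MYCN- libraries from 6.41 to 13.5%, with a small overlap, and replicate 3 of both MYCN+/SNRPD3- groups was far above the other replicates. The MYCN main effect was 9.05 points (log2 odds 1.03, SE 0.203, limma adjusted p 0.0268). The knockdown main effect was 2.98 points, with an adjusted p of 0.862.

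PRPF40B, a relative of the yeast U1 protein Prp40, had the most tested introns (40) and no call. Its leading difference with knockdown was a choice between 3′ splice sites 3 bases apart, shown with the 3 bases in capitals after 20 intron bases and before 10 exon bases (chr12:49642907-49642939, plus strand).
PRPF40B tandem 3′ splice sites: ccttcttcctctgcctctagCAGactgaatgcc
Use of the downstream site (chr12:49642675-49642930) was 61.1% ± 2.8 (SD, n = 3) in wildtype and 58% ± 2.3 in MYCN+/SNRPD3+. It was 72.3% ± 9.8 and 75.7% ± 5.7 with siRNA #1 and #2 in MYCN- cells, and 67.6% ± 3.6 and 65.7% ± 4.4 in MYCN+ cells. The knockdown main effect was 10.8 points (adjusted p 0.322). The skipping share of the 81-base exon 2 of PRPF40B, which sets the PSI of the skipping intron against the mean of both inclusion introns, was 48.5% over all libraries, with group means between 40.1 and 60.5%. The skipping intron itself (chr12:49623593-49631401) held 3.87% of its large cluster, and the shares given for cassette exons below are skipping shares of this kind, not shares of the cluster.

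Proteins of U2 snRNP, the branch point and the 3′ splice site had 85 tested introns in 11 of 14 genes, and their calls were in SF3B1 and SF3A3. Against wildtype 2 introns were called higher and 1 lower, where 0.559% of all tested introns were called. The 2 called introns of SF3B1 share a cluster and are not separate results. At an unadjusted p under 0.05, 15 introns (17.6%) differed, 8 higher and 7 lower, where all tested introns had 11%. Without siRNA #1 replicate 3 of MYCN+/SNRPD3-, 16 (18.8%) did so against 10.4% of all tested introns, and 0 were called. SF3B1, the SF3B subunit that surrounds the branch point, was called between exons 20 and 21 (chr2, minus strand), where a 70-base exon (chr2:197398969-197399038) is joined to exon 20 through a 3′ splice site that is outside the annotation. This site is shown with 20 intron bases in lower case and 3 exon bases in capitals (chr2:197399036-197399058).
SF3B1 unannotated site: ccttttttctctcttcgtagGTG

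The intron that ends at this site (chr2:197399038-197400055) had a PSI of 1.97, 2.53 and 2.08% in wildtype and 1.51, 1.5 and 0.994% in MYCN+/SNRPD3+. In MYCN+ cells it was 0.869, 0.618 and 0.427% with siRNA #1 and 1.17, 0.552 and 0.496% with siRNA #2, all below wildtype. In MYCN- cells the means were 1.36% ± 0.58 and 1.32% ± 0.16 (SD, n = 3). The difference against wildtype was -1.5 points (log2 odds -0.95, SE 0.181, limma adjusted p 0.0397). The intron that joins exon 20 to exon 21 (chr2:197398581-197400055) was 95.2% ± 0.38 in wildtype and 98.5% ± 0.52 and 98.2% ± 0.82 with siRNA #1 and #2 in MYCN+ cells, 3.21 points higher (adjusted p 0.0438).

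SF3A3, a subunit of SF3A, had a call for a new join of annotated sites (chr1:37969735-37979465), which is not an annotated intron and passes over 3 exons. Its PSI was 0.723, 0.564 and 0.442% in wildtype, 1.49, 1.71 and 2.72% with siRNA #1 and 1.60, 1.15 and 2.23% with siRNA #2 in MYCN+ cells. These libraries were all above wildtype, by 1.24 points on average (adjusted p 0.0462), at a level of 1 to 3% of the cluster. The SF3A3 call was lost in 22 alternative settings and kept in 5, with adjusted p-values from 0.0262 to 0.209.

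SF3B3, an SF3B scaffold protein, moved in the direction opposite to TIAL1, LUC7L3 and PRPF39. An NMD exon of 29 bases (chr16:70550650-70550678, plus strand) lies between its exons 11 and 12 and has a stop after 8 coding bases (chr16:70550630-70550660, shown to the stop in capitals).
SF3B3 NMD exon: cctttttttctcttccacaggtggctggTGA
Joining of exon 11 to exon 12 (chr16:70548442-70554446), which skips this exon, was 92.7, 92.0 and 93.0% in wildtype and 93.1, 92.3 and 94.6% in MYCN+/SNRPD3+. With siRNA #1 it was 90.1, 91.5 and 89.6% in MYCN- cells and 87.7, 88.9 and 86.4% in MYCN+ cells. With siRNA #2 it was 87.2, 89.2 and 82.7% in MYCN- cells and 83.5, 88.3 and 69.0% in MYCN+ cells. All 12 SNRPD3- libraries lay below all 6 control libraries, and siRNA #2 replicate 3 in MYCN+ cells was far below the rest. The knockdown main effect was -6.79 points (log2 odds -0.93, SE 0.202), with an unadjusted p of 0.000499 and an adjusted p of 0.208 by limma over all tested introns, so it was not called.

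PUF60, which helps U2AF at the polypyrimidine tract, had a large but variable difference. Joining of exon 1 to exon 3, which skips the 87-base coding exon 2, was 32.4% ± 3.3 (SD, n = 3) in wildtype and 37.1% ± 8.2 in MYCN+/SNRPD3+. It was 34.5% ± 2.6 and 45.4% ± 21 with siRNA #1 and #2 in MYCN- cells and 64% ± 8.1 and 57.8% ± 4.6 in MYCN+ cells. The MYCN+/SNRPD3- libraries were 28.6 points above wildtype without overlap, with an adjusted p of 0.0967. SF1, the branch point binding protein, U2AF2, SF3A1, SF3A2, SF3B2, SNRPB2 and U2AF1L4 had no call, and the lowest adjusted p among them was 0.0821, for an SF1 intron with knockdown. The 16 introns of U2AF1L4 included 14 that are shared with an overlapping gene and cannot be assigned to it alone.

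The U4/U6.U5 tri-snRNP and the factors of its activation had 108 tested introns in 14 of 15 genes, with calls in PRPF3, PRPF38A and PPIH. Against wildtype 2 introns were called higher and 1 lower, and for MYCN 3 higher and 2 lower. Over all tested introns 0.559% and 1.23% were called. The 2 called introns of PRPF3 are complements within a cluster, as are the 2 of PRPF38A, so neither pair is 2 separate results. At an unadjusted p under 0.05, 33 introns (30.6%) differed from wildtype, 14 higher and 19 lower, where all tested introns had 11%. Without siRNA #1 replicate 3 of MYCN+/SNRPD3-, 25 (23.1%) did so against 10.4% of all tested introns. The calls of the list were then 2 against wildtype and 2 for MYCN. PRPF3, a protein of the U4/U6 di-snRNP, had the lowest adjusted p of the member introns against wildtype. The call is a choice of 3′ splice site at exon 12 (plus strand of chromosome 1), where the upstream site adds 58 bases to the exon in a transcript without a defined coding sequence. The added bases are shown in capitals, after 20 intron bases and before 10 bases of the common exon (chr1:150344356-150344443).
PRPF3 exon 12 start: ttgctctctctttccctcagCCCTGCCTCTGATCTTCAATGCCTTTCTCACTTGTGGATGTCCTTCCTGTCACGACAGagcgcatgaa

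Use of the upstream site (chr1:150344261-150344376) was 3.67, 3.56 and 4.43% in wildtype and 3.24, 2.54 and 2.22% in MYCN+/SNRPD3+. In MYCN- cells it was 1.88, 2.44 and 1.5% with siRNA #1 and 2.92, 3.26 and 1.70% with siRNA #2. In MYCN+ cells it was 1.36, 1.17 and 0.862% with siRNA #1 and 1.09, 1.55 and 1.22% with siRNA #2. Wildtype was the highest group and the MYCN+/SNRPD3- libraries were all below every control library. The difference against wildtype was -2.68 points (log2 odds -1.19, SE 0.171, limma adjusted p 0.0112), that of the MYCN main effect was -1.12 points (adjusted p 0.0441), and that of knockdown was -1.53 points (adjusted p 0.111). The intron to the downstream site (chr1:150344261-150344434) is its complement so that its differences are the same with the opposite sign.

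A cassette exon of 96 bases between exons 3 and 4 of PRPF3 (chr1:150327557-150327652) lay just outside the threshold. The intron that skips it (chr1:150325881-150328320) had a mean PSI of 79.2% ± 0.97 (SD, n = 3) in wildtype, 82.2% ± 2.1 in MYCN+/SNRPD3+, and 89.5% ± 3.6 and 89.2% ± 0.80 with siRNA #1 and #2 in MYCN+ cells. The difference against wildtype was 10.2 points with an adjusted p of 0.0545.

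PRPF38A, which joins the spliceosome at activation, had the lowest adjusted p of the MYCN main effect among the member introns. An alternative 5′ splice site inside exon 2 is joined to exon 5 (chr1:52405713-52412514, plus strand), leaving out exons 3 and 4, and competes with the intron from exon 4 to exon 5 (chr1:52411200-52412514). The 5′ splice sites of both introns are shown with 3 exon bases in capitals and 6 intron bases in lower case (chr1:52405711-52405719 and chr1:52411198-52411206).
PRPF38A site inside exon 2: AAGgtttgt
PRPF38A exon 4 site: CAGgtaaga

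The intron from exon 2 to exon 5 had a PSI of 4.58, 3.55 and 6.05% in wildtype and 9.08, 8 and 8.12% in MYCN+/SNRPD3+. In MYCN- cells it was 4, 2.3 and 3.39% with siRNA #1 and 4.25, 2.28 and 4.01% with siRNA #2. In MYCN+ cells it was 6.57, 7.25 and 7.80% with siRNA #1 and 9.20, 8.07 and 6.80% with siRNA #2. All 9 MYCN+ libraries, from 6.57 to 9.20%, lay above all 9 MYCN- libraries, from 2.28 to 6.05%. The MYCN main effect was 4.05 points (log2 odds 0.97, SE 0.132, limma adjusted p 0.00301), and it stayed past the threshold without any 1 of the 18 libraries. The knockdown main effect was -1.07 points (adjusted p 0.679), and MYCN alone gave 3.67 points with an adjusted p of 0.428.

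PPIH, the cyclophilin of the U4/U6 particle, was called at the end of its transcript (plus strand of chromosome 1). The intron from exon 9 to exon 10 (chr1:42667440-42676584) lies beyond the coding sequence of the canonical transcript and competes with several alternative exons of a few percent each. Its PSI was 88.8, 89.0 and 88.9% in wildtype and 90.8, 90.6 and 92.3% in MYCN+/SNRPD3+, and 92.2, 94.0 and 95.3% with siRNA #1 and 92.2, 92.1 and 94.2% with siRNA #2 in MYCN+ cells. The MYCN-/SNRPD3- means were 90.5% ± 0.44 and 90.3% ± 1.1 (SD, n = 3), between wildtype and the MYCN+ groups with overlap. The MYCN main effect was 2.74 points (adjusted p 0.0406), and the difference against wildtype was 4.42 points (adjusted p 0.0488).

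**Figure D3:**
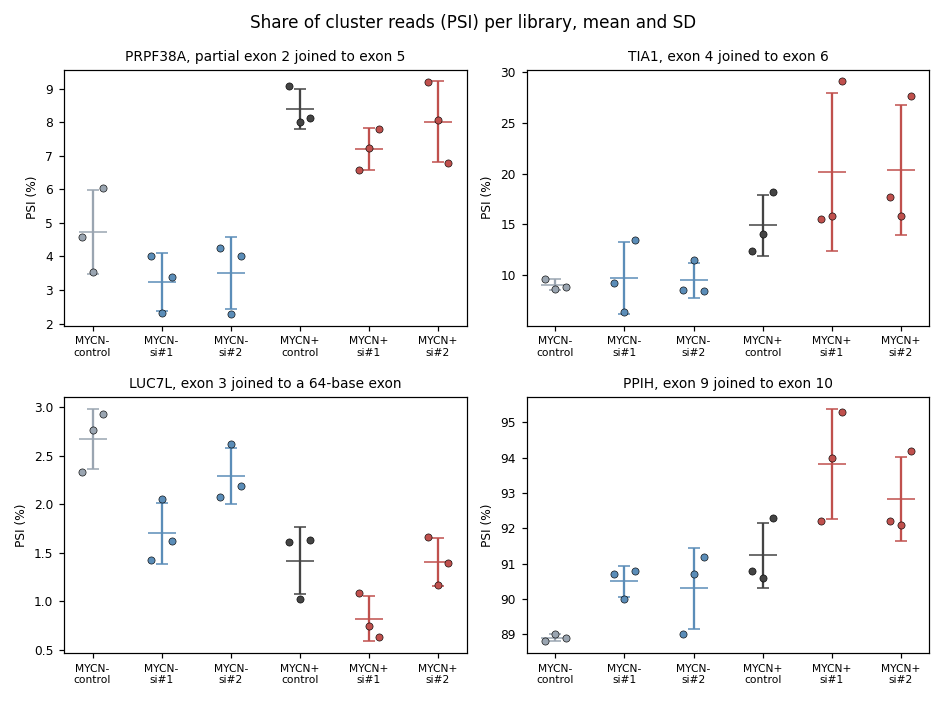
Points are the PSI (%) of single libraries, with the group mean and SD (n = 3), for the introns of PRPF38A, TIA1, LUC7L and PPIH called in the MYCN main effect. The MYCN+ libraries of PRPF38A, from 6.57 to 9.20%, are all above the MYCN- libraries, while the groups overlap for the other 3 introns.

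PRPF38B, a relative of PRPF38A, joined exon 4 to exon 5 (chr1:108696337-108698604) at 54.1% ± 4.3 (SD, n = 3) in wildtype and at 70.6% ± 9.1 and 65.8% ± 4.6 with siRNA #1 and #2 in MYCN+ cells, 14 points higher with an adjusted p of 0.184. PRPF4B, a kinase of the tri-snRNP, had 19 tested introns and 5 with an unadjusted p under 0.05 against wildtype, and no call. The skipping share of its 77-base exon (chr6:4062557-4062633) was 27.1% ± 3.57 in wildtype and 26.9% ± 3.08 in MYCN+/SNRPD3+. It was 26.5% ± 1.06 and 29.7% ± 1.5 with siRNA #1 and #2 in MYCN- cells and 34.9% ± 2.07 and 32.3% ± 5.89 in MYCN+ cells. PRPF8, the core protein at the catalytic centre, varied widely between replicates. Its 57-base exon (chr17:1651981-1652037) had skipping shares with an SD of 21.0 to 38.5 percentage points within every group. The remaining genes of this list (PRPF4, PRPF6, PRPF31, SNRNP200, SNRNP27, SNRNP40, EFTUD2 and USP39) had no call, and their lowest adjusted p was 0.074, for a USP39 intron in the MYCN main effect.

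The minor spliceosome and the late factors had no call in any of the 7 comparisons. SNRNP25, SNRNP35, SNRNP48 and ZRSR2, which serve the rare U12-type introns, had 30 tested introns. Of these, 3 (10%) had an unadjusted p under 0.05 against wildtype and 0 for the knockdown main effect. All tested introns had 11% and 7.8%. For SNRPD3 knockdown 5 (16.7%) passed in MYCN- cells and 0 in MYCN+ cells, against 4.69% and 7.06% of all tested introns. For the interaction 3 (10%) passed against 3.98%. Without siRNA #1 replicate 3 of MYCN+/SNRPD3-, 3 (10%) passed against wildtype, 0 for the knockdown main effect and 1 for knockdown in MYCN+ cells. An 8-base exon of SNRNP48 (chr6:7599673-7599680) had a skipping share of 86.9% ± 2.83 (SD, n = 3) in wildtype and of 82.3 to 91.3% in the other group means. The Prp19 complex and catalytic step genes had 58 tested introns in 8 of 10 genes, with 5 (8.62%) against wildtype and 3 (5.17%) with knockdown, which was below the shares of all tested introns. Without siRNA #1 replicate 3 of MYCN+/SNRPD3- they were 6 (10.3%) and 4 (6.9%), and 1 intron of the list was called for MYCN. PRPF18, a second step factor, had the lowest adjusted p in this list, for the intron from exon 1 to exon 2 (chr10:13587152-13597458). Its PSI was 77.8% ± 3.6 in wildtype and 67.1% ± 3.7 in MYCN+/SNRPD3+, and the MYCN main effect was -7.95 points (adjusted p 0.0653). The 130-base exon of SLU7 (chr5:160417112-160417241) had group mean skipping shares of 94.8 to 96.5%.

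The exon junction and SR-related proteins ACIN1, SRRM1 and SRRM2 had 60 tested introns and no call. Against wildtype 23 introns (38.3%) had an unadjusted p under 0.05, 10 higher and 13 lower, where all tested introns had 11%. For MYCN 20 (33.3%) passed against 11.7% of all tested introns, and with knockdown 4 (6.67%) against 7.8%. Without siRNA #1 replicate 3 of MYCN+/SNRPD3- the numbers were 22, 19 and 4. The lowest adjusted p in the list was 0.052, in ACIN1 for MYCN. The ACIN1 intron that joins exon 3 to exon 5 and skips the 120-base exon 4 (chr14:23081836-23090522) had 60.4% ± 3.9 in wildtype and 70.2% ± 1.2 and 71.7% ± 1.5 with siRNA #1 and #2 in MYCN+ cells, 10.6 points higher (adjusted p 0.262). The 42-base coding exon of SRRM1 (chr1:24663183-24663224), which keeps the reading frame, had a skipping share of 53.8% ± 3.02 in wildtype and of 67.0% ± 7.89 and 65.2% ± 6.09 with siRNA #1 and #2 in MYCN+ cells. The intron that skips it (chr1:24662804-24666815) was 7.92 points higher than wildtype, with an adjusted p of 0.30. In SRRM2, a large scaffold protein of nuclear speckles, the intron that joins exon 9 to exon 10 (chr16:2759661-2760301) and skips a 262-base NMD exon had a mean PSI of 76.3% ± 0.95 in wildtype, 70.8% ± 4.7 in MYCN+/SNRPD3+, and 68.8% ± 1.8 and 69.3% ± 6.2 with siRNA #1 and #2 in MYCN+ cells. The MYCN main effect was -5.82 points with an adjusted p of 0.159.

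Several of the differences above concern exons that occur in NMD transcripts, and this class was counted over all member genes. It holds 55 tested introns of 20 genes, in 29 clusters, that occur in an annotated NMD transcript and in no protein-coding one. Against wildtype 21 of the 55 (38.2%) had an unadjusted p under 0.05, of which 17 were lower and 4 higher, and 3 were called, all lower. These 3 calls lay in a single cluster each of TIAL1 and LUC7L3, so they are not 3 separate results. The median difference of the 55 introns was -0.597 percentage points. Over the whole dataset the same class had 6114 introns, of which 1017 (16.6%) passed, with 426 lower and 591 higher, and a median difference of 0.186 points. Of the 6114, 18 were called lower and 33 higher. With knockdown 17 of the 55 passed (30.9%), 14 lower and 3 higher, against 748 of 6114 (12.2%), 371 lower and 377 higher. For the MYCN main effect 14 of the 55 passed (25.5%), 12 lower and 2 higher, against 987 of 6114 (16.1%), 358 lower and 629 higher. Without siRNA #1 replicate 3 of MYCN+/SNRPD3- the numbers that passed were 17 against wildtype, 14 with knockdown and 13 for MYCN, with 13, 13 and 11 lower. In that fit 1 intron of the class was called against wildtype.

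The lower NMD introns lay in 8 genes against wildtype, in 4 with knockdown and in 9 for MYCN. LUC7L3 had 5 of 5 and PRPF39 had 6 of 6 lower at an unadjusted p under 0.05, both with knockdown and against wildtype, and introns of these genes lie in 2 clusters each. With knockdown the other lower introns were 2 of TIAL1 and 1 of SF3B1, and the higher ones were 2 of SF3B3 and 1 of PRPF4B. SRRM2 had 2 of 6 higher and 0 lower against wildtype. The PRPF39 intron after its NMD exons (chr14:45096758-45096887) had a mean PSI of 31.0% ± 6.4 (SD, n = 3) in wildtype, and 18.5% ± 5.8 and 16% ± 4.1 with siRNA #1 and #2 in MYCN+ cells, a difference of -13.8 points (adjusted p 0.105). In protein-coding transcripts of the member genes, 70 of 275 introns (25.5%) passed against wildtype, 37 higher and 33 lower, where 10.2% of all such introns passed. Among 56 annotated member introns of other non-coding transcripts 15 (26.8%) passed, 3 higher and 12 lower, where 12.3% of all such introns passed, so the lean to a lower PSI was also seen outside the NMD class. Among 80 member introns outside the annotation 18 (22.5%) passed, 10 higher and 8 lower, where 11.1% of all such introns passed.

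**Figure D4:**
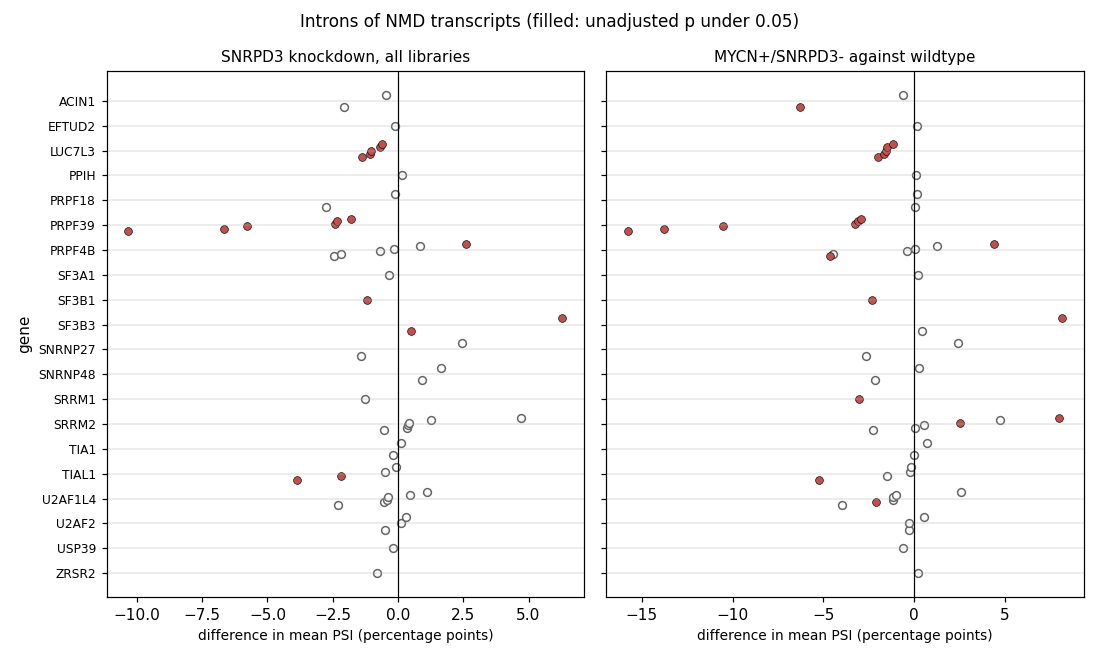
Each point is an intron of an NMD transcript that occurs in no protein-coding transcript, placed by gene and by its difference in mean PSI (percentage points), on the left for SNRPD3 knockdown over all libraries and on the right for MYCN+/SNRPD3- against wildtype. Filled points have an unadjusted p under 0.05, and those of LUC7L3 and PRPF39 all lie below 0 while those of SF3B3 lie above it.

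The cassette exons of the member genes had higher skipping shares than cassette exons as a whole. The 54 counted here are skipping events, some of which repeat or overlap an exon. Events of PRPF18, PRPF8 and PUF60 among them varied widely between replicates. The mean skipping share of the 54 was 67.4% ± 1.45 (SD, n = 3) in wildtype and 69.0% ± 0.712 in MYCN+/SNRPD3+. It was 69.2% ± 2.55 and 68.5% ± 1.98 with siRNA #1 and #2 in MYCN- cells. In MYCN+ cells it was 71.3% ± 3.77 and 72.1% ± 1.57, where siRNA #1 had 69.1% without its replicate 3. Over all 11682 cassette exons it was 40.6% in wildtype, 41.3% in MYCN+/SNRPD3+, and 42.2% and 41.9% with siRNA #1 and #2 in MYCN- cells. In MYCN+ cells it was 44.1% and 43.25%, where siRNA #1 had 43.1% without its replicate 3. With all libraries, both sets were highest in the MYCN+/SNRPD3- groups. Of the member exons near even use, the 62-base exon of ACIN1 had skipping shares of 47.2 to 55.9% in the 6 group means. The 67-base exon of U2AF1L4 had 46.5% ± 6.05 in wildtype, 51.2% ± 12.2 and 45.3% ± 3.96 with siRNA #1 and #2 in MYCN- cells, 34.8% ± 5.39 in MYCN+/SNRPD3+, and 40.7% ± 9.57 and 39.9% ± 4.35 with siRNA #1 and #2 in MYCN+ cells. These differences were not tested, and most of this gene's introns are shared with another gene.

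Other genes of the spliceosome, which are not among the 54, were read as a point of comparison. In 61 such genes 448 introns were tested. Against wildtype 4 were called, 2 higher and 2 lower, and 82 (18.3%) had an unadjusted p under 0.05 against 11% of all tested introns. With knockdown 0 were called by limma and 53 (11.8%) passed against 7.8%. For MYCN 10 were called, 6 higher and 4 lower, and 70 (15.6%) passed against 11.7%. The backgrounds of calls were 0.559%, 0.0242% and 1.23%. The unadjusted shares of these genes also lay above those of all tested introns, so such an excess was not particular to the 54 genes. Splice sites of the member introns were of the common kind, with 465 of 466 starting with GT and ending with AG and 1, in U2AF2, starting with GC. Of the 466 introns, 386 were annotated, 20 were new joins of annotated sites and 60 had 1 annotated site, and 37 of the 47 genes with a tested intron had no call in any comparison.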

How the data were processed

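The authors aligned reads to hg38 (STAR 2.5.0a and SAMtools 1.3.1 in the submitters' processing notes), clustered introns with leafcutter and annotated them with an earlier GENCODE release. The authors' deposited values are PSI fractions for 233650 introns in 51819 clusters, 1 column per library. All 18 columns were matched to a library by name and 0 were left unmatched. PSI was never exactly 0 or 1, and 23 of the 466 member introns had a value repeated between libraries. Of all 152722 tested introns 26374 did so, so the background holds a larger share of such introns than the member genes. Depth is unknown, so no interval was computed for a PSI. The deposited FDR and delta PSI of 15 pairwise comparisons were not used, and no intron of the MYCN or SNRPD3 gene was used here.

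Introns with a mean PSI from 0.01 to 0.99 were fitted with limma 3.58.1 in R 4.3.3 (lmFit and eBayes), with 6 group means in 1 fit, 1.17 prior degrees of freedom, an offset of 0.01 and Benjamini-Hochberg adjustment within each of 7 comparisons. The fit was tested on simulated data made by shuffling residuals. Exons are numbered along the Ensembl canonical transcript, and sequences are of the hg38 reference. Tables and plots were made with Python 3.11.15, numpy 2.4.6, pandas 2.3.3 and matplotlib 3.10.9. To give a skipping share, the skipping intron's PSI was divided by its sum with the mean PSI of both inclusion introns. An exon with several sets of flanking introns was counted once for each, so counts of cassette exons are counts of such events.

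The member genes, role lists and tests were chosen with earlier results of these data known. Named introns were at most 12 called introns per comparison, the 6 introns (1 per gene) with the largest PSI difference among annotated ones of 18 different values at an unadjusted p under 0.05 in each of 3 comparisons, and in each of 6 role lists up to 3 cassette exons with skipping nearest 50%, 37 introns in all. The PPIH difference against wildtype, the PRPF39 intron after the NMD exons and the counts over NMD transcripts fell outside this rule and were chosen after their values were seen. Alternatives were other offsets, an arcsine scale, other PSI filters, only introns with 18 different values, a fit of only the groups compared, a replicate block, eBayes with trend and robust options, an adjusted p under 0.01 and leaving out each library. Counts by list without siRNA #1 replicate 3 of MYCN+/SNRPD3- were added after seeing the data.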

Additional observations from a re-analysis of the deposited data

How the results depend on the processing

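The counts of member introns called depended on the settings. For MYCN+/SNRPD3- against wildtype the 13 calls became 20 with only introns of 18 different values, 6 on the arcsine scale, 5 with the trend and robust options, 5 with a mean PSI from 0.05 to 0.95, 2 when the fit held just the compared groups and 0 at an adjusted p under 0.01. For the MYCN main effect the 8 calls became 5 on the arcsine scale, 4 with the trend and robust options, 5 with a mean PSI from 0.05 to 0.95 and 3 at an adjusted p under 0.01. The single knockdown call was lost (0) with the trend and robust options and at an adjusted p under 0.01. Leaving out 1 library gave 0 to 12, 3 to 10 and 0 to 2 calls in these comparisons. For knockdown in MYCN+ cells it gave 0 to 1, with 1 call without siRNA #1 replicate 1. MYCN alone, knockdown in MYCN- cells and the interaction kept 0 calls in every alternative run. With a replicate block the calls were 30 against wildtype and 20 for MYCN. Between libraries sharing a replicate number, the mean correlation of deviations from the group mean was 0.00615 over 45 pairs (range -0.0509 to 0.0638). For different numbers it was -0.00307. This average over all tested introns cannot show whether some introns or groups share a replicate effect, so pairing was not settled. For the named introns, the alternatives that kept all libraries left 290 results on the same side of the threshold, 64 lost their call and 4 gained one. Leaving out 1 library, 478 stayed on the same side, 183 lost their call and 5 gained one. In both sets 0 changed direction. Both counts that stayed include named introns without a call in the main fit, which could not lose one. They therefore overstate how stable the calls were. The cause of these changes in calls was not tested. Read depth per intron is not given, which limits what can be said of introns at a few percent.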
